A study of Mus musculus with 3 samples.

Results

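Lhx2, Rax, Six3, Six6, Meis1 and Meis2 are 6 homeobox genes of the eye field and of retinal progenitors, and their chromatin was examined here in mouse Müller cells, the radial glia of the retina. They were chosen by name, 6 of 21646 protein-coding genes on the autosomes and X, and every one was found in the annotation. DNase-seq, which sequences the cuts that the nuclease DNase I makes in accessible chromatin, was run on 1 group of 3 biological replicates. These are primary Müller cells of healthy B6NCrl mice at postnatal day 12, with males and females pooled. The labels point to a protocol for nuclei of cultured cells and name no sort, time in culture, transgene or treatment. The replicates carry different biosample labels and the same donor label, so a standard deviation (SD) measures how far these samples differ, and some of that may be technical. With a single group there was no comparison between conditions and no test, and all values below are descriptions.

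The eye field is the patch of the anterior neural plate that becomes both eyes, and the transcription factors that define it act together and sustain each other's expression. Lhx2 is a LIM-homeodomain factor that is needed for optic vesicle formation and, later, for the production and maintenance of Müller glia. Rax is a paired-class homeodomain factor without which eyes do not form, and it stays on in Müller glia and developing photoreceptors. Six3 and Six6 are related homeodomain factors of the sine oculis family that repress transcription with Groucho corepressors and keep progenitors dividing; in the mature retina they are also known from amacrine and ganglion cells. Meis1 and Meis2 are TALE homeodomain factors that bind DNA with PBX partners, in progenitors and, later, in some amacrine cells. An accessible promoter or distal site does not show that a gene is transcribed.

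For every replicate there is a list of peaks, most of them 150 bp wide, each with a score between 1 and 150 whose meaning is not stated, and a list of wider hotspots with a −log10 q. Replicates 1, 2 and 3 had 300269, 281185 and 184544 peaks with median scores of 53, 44 and 42, and 269267, 259229 and 161437 hotspots. Read depth is unknown, so differences between replicates in the number of peaks cannot be set against depth. The 12 Müller glia markers examined (among them Rlbp1, Glul and Slc1a3) had a promoter peak in every replicate, with summed scores of 1440, 1347 and 1327, and none of the 8 rod markers had one in any replicate. Replicate 3 stood apart: 12 of 12 microglia and macrophage markers had a promoter peak in replicates 1 and 2 and 2 of 12 in replicate 3, with summed scores of 953, 909 and 107. Csf1r, Spi1 and Cx3cr1 had none there. Of 9 amacrine and horizontal cell markers 6, 6 and 7 had a promoter peak (summed scores 520, 460 and 544; Ptf1a and Chat had none), and of 7 ganglion cell markers 6 had one in each replicate (396, 319 and 408). All 5 astrocyte markers had one in each replicate (390, 334 and 403), as did 5 of 6 mural and connective tissue markers (485, 409 and 400). Of 5 endothelial markers 4, 4 and 3 had one (404, 373 and 248), and of 6 pigment epithelium markers likewise 4, 4 and 3 (326, 285 and 225). Open promoters of these lists thus do not set Müller glia apart from astrocytes.

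All coordinates are on mm10, and all sequences are given 5′ to 3′ on the plus strand of the RefSeq copy of that build. A distal site here is a merged peak region over 1 kb from every protein-coding start site, which counts for a gene if the closest start site is that gene's and lies no more than 100 kb away. The sequences below are the central 150 bp of distal sites with a peak in all 3 replicates. Capitals mark matches to the fixed words described further on. The first 6 are among the 3 highest-scoring distal sites of their gene. They were taken by the lowest score of the 3 replicates, skipping windows that overlap an untranslated part of an exon. The strongest distal site of Six3, described further on, is therefore not printed. The 6 are a coding exon, 2 introns, 2 sites just upstream of a first exon, and the start of an antisense transcript.
Lhx2, chr2:38359966-38360115: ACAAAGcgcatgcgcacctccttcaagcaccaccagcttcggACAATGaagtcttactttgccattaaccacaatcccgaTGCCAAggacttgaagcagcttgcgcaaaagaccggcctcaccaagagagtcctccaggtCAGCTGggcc
Six3, chr17:85626596-85626745: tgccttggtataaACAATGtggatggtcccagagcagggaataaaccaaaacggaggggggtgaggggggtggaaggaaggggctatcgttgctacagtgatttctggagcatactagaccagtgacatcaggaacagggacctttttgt
Six3, chr17:85618426-85618575: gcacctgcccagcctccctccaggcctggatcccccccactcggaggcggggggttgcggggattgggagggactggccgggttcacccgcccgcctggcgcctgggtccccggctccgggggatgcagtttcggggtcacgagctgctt
Meis1, chr11:19020446-19020595: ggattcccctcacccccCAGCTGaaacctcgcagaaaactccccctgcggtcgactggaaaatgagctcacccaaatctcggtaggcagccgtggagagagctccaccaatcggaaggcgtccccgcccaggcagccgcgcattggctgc
Meis1, chr11:18944976-18945125: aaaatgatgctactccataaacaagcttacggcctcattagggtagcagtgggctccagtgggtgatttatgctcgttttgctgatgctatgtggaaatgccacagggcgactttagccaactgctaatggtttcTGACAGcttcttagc
Meis2, chr2:116067096-116067245: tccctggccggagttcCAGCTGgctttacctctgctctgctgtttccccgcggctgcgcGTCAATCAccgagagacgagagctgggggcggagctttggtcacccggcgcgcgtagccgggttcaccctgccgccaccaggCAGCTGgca
A further pair was chosen after values were seen. The Lhx2 intron site holds the LIM and paired homeodomain core TAATTA and, after 6 more bases, GTCAATCA, the reverse complement of the PBX-MEIS core TGATTGAC. The other lies upstream of Six6, in an intron of the neighbouring gene 4930447C04Rik.
Lhx2, chr2:38347966-38348115: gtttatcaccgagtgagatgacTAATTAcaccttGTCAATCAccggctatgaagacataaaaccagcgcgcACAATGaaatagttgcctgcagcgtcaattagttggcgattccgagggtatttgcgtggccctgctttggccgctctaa
Six6, chr12:72936446-72936595: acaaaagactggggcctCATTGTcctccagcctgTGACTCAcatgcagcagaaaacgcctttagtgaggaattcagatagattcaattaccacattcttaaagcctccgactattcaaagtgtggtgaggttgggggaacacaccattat
The GC content of these 8 windows ran from 45.3% in the Six6 site to 74% in the Six3 site at the antisense start. For Rax, values are given without sequence.

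All 6 genes had an open promoter, meaning a merged region with a peak in all 3 replicates within 1 kb of an annotated start site. This held for 14521 of the 21646 protein-coding genes (67.1%), so openness alone does not set these genes apart. Their strongest promoter peaks had a median score of 132, 130 and 126 in replicates 1, 2 and 3, beside 101, 89 and 90 over all genes with 0 for no peak.

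Lhx2 had the highest mean, with strongest promoter scores of 141, 139 and 142 in replicates 1, 2 and 3 (141 ± 1.53, SD, n = 3). The 3 replicates were nearly equal, and 86.8%, 89.4% and 97% of genes scored lower. This peak was not at the first exon. Lhx2 (ENSMUSG00000000247.11, chr2:38339281-38369733, plus strand) has 4 annotated coding start sites, and the strongest region, chr2:38350916-38351085, lay in an exon 11720 bp downstream of the most upstream one. The region at that first start site, chr2:38339196-38339445, scored 82, 82 and 91. Lhx2 had 12 promoter regions in at least 1 replicate, more than 99.6% of genes, against a median of 2. Only 3 of the 12 had a peak in every replicate, and 4 had peaks of replicates 1 and 3 alone.

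Rax (ENSMUSG00000024518.4, chr18:65928277-65939787, minus strand, 3 start sites) had the lowest promoter scores of the 6 genes, at 93, 76 and 99 (89.3 ± 11.9, SD, n = 3). It lay near the middle of all genes, of which 46.5%, 45% and 54.7% scored lower. In score units the replicates differed more than for any other member, with replicate 2 lowest. By percentile this was not so. The shares of genes lower spread more widely at Six3 (72.9%, 90.7% and 78.4%), and slightly more at Six6 (88.6%, 81.7% and 92.1%) and Lhx2. The region, chr18:65938996-65939165, covered an annotated start site in an exon of Rax that the antisense transcript Raxos1 also overlaps.

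Six6 (ENSMUSG00000021099.6, chr12:72939892-72944899, plus strand) has 1 start site, and its strongest promoter peak scored 142, 133 and 137 (137 ± 4.51, SD, n = 3). The region ended 7 bp upstream of that start site, at chr12:72939716-72939885. It also lies in an exon of 4930447C04Rik, a gene read from the opposite strand, so the peak cannot be given to Six6 alone.

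Six3 (ENSMUSG00000038805.10, chr17:85613608-85629302, plus strand, 3 start sites) scored 132, 140 and 126 (133 ± 7.02, SD, n = 3). A pair of neighbouring regions gave these values. The region at chr17:85620716-85620925 scored 132, 140 and 124, and the next one, chr17:85620996-85621205, scored 118 and 126 in replicates 1 and 3 and had no peak in replicate 2. They are centred 7213 and 7493 bp downstream of the most upstream start site, at an internal one. Of the 9 promoter regions of Six3 7 had a peak in all replicates, and 5 of these had their centre within 1137 bp of the first start site. The 3 upstream of it overlap an exon of the noncoding transcript Six3os1.

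Meis1 (ENSMUSG00000020160.18, chr11:18879817-19018985, minus strand, 4 start sites) scored 132, 127 and 126 (128 ± 3.21, SD, n = 3) at chr11:19018936-19019105, over its most upstream start site. Meis2 (ENSMUSG00000027210.20, chr2:115863064-116065839, minus strand, 4 start sites) scored lower, 112, 112 and 108 (111 ± 2.31, SD, n = 3), at chr2:116065676-116065845 in its first exon. The values of these paralogs did not overlap. In order of means, Lhx2, Six6, Six3 and Meis1 followed each other by 3.33, 4.67 and 4.33 score units, and each of these gaps was smaller than the larger SD of the pair, so their order is not settled. Meis2 stood 17.7 below Meis1, and Rax 21.3 below Meis2, both more than the larger SD.

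**Figure D1:**
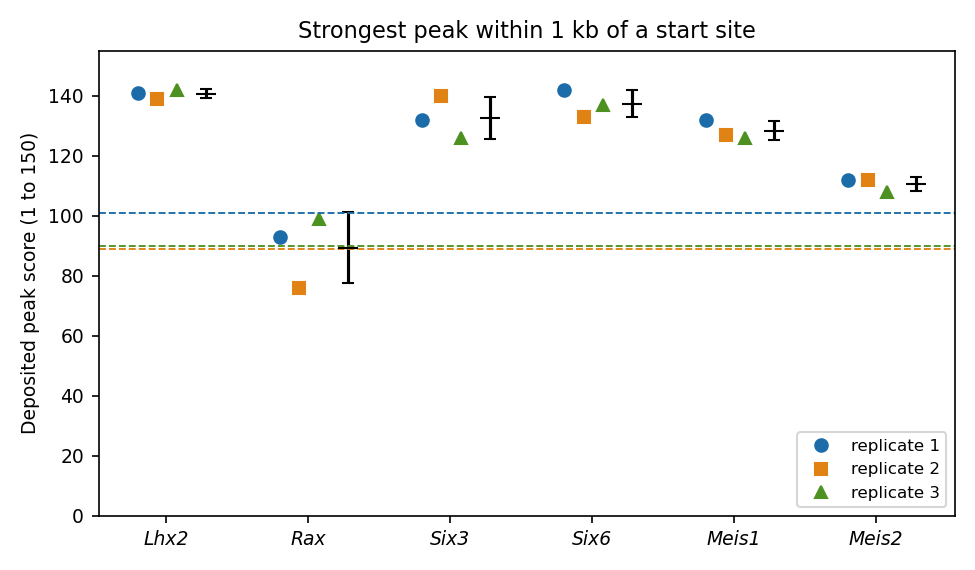
Strongest deposited peak score (vertical axis, score units) within 1 kb of a start site for each gene, by replicate (circle, square and triangle for replicates 1, 2 and 3), with mean and SD (n = 3) in black; dashed lines are the medians over 21646 genes in each replicate (101, 89 and 90). Rax (93, 76 and 99) lies near the medians, and the other 5 genes lie above the median of their replicate in every replicate.

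The CpG content of the promoters, as observed over expected CpG within 500 bp of the start site where it is highest, was above the gene median of 0.619 in 5 of the 6 genes, from 0.683 in Meis1 to 0.838 in Meis2. It was 0.52 in Rax, the gene with the lowest promoter scores. At 6 genes this is a description only.

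Distal sites were many at 5 of the 6 genes. Meis1 had 66, 56 and 56 distal peaks in replicates 1, 2 and 3 (59.3 ± 5.77, SD, n = 3), more than 99.5%, 99.2% and 99.9% of genes. Six3 had 55, 47 and 31 (44.3 ± 12.2), with replicate 3 lowest. Lhx2 had 35, 18 and 27 (26.7 ± 8.5), with replicate 2 lowest, although replicate 3 had the fewest peaks over the genome. Meis2 had 31, 24 and 29 (28 ± 3.61), and Rax had 21, 19 and 20 (20 ± 1), the most even of the genes with distal peaks. Six6 had 0 in every replicate, which the rule sets, as shown further on. Meis1, Six3 and Rax were each separated from the next lower gene by more than the larger SD, while Meis2 was not separated from Lhx2, nor Lhx2 from Rax. Gene medians were 4, 4 and 2.

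**Figure D2:**
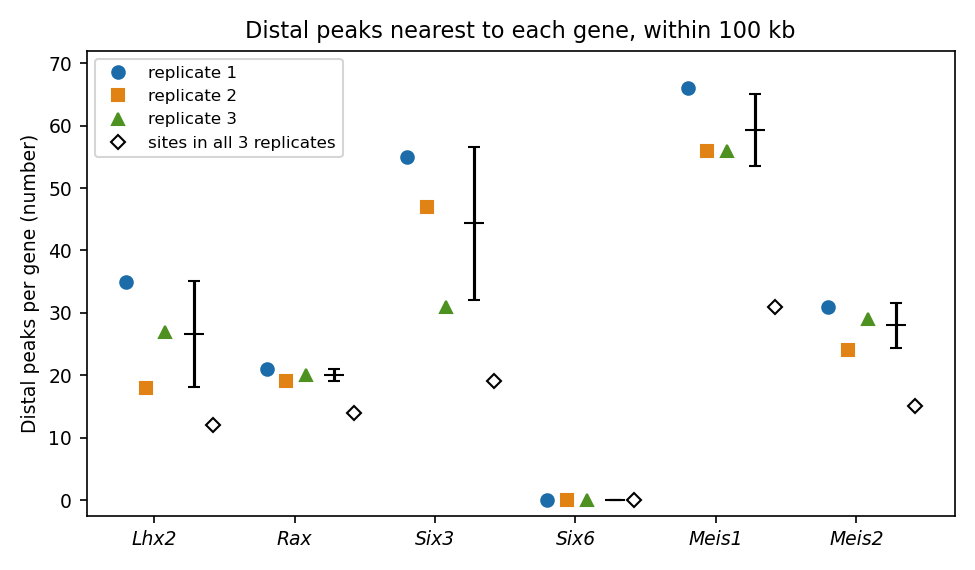
Number of distal peaks given to each gene (vertical axis) in replicates 1, 2 and 3, with mean and SD (n = 3) in black and, as open diamonds, the number of merged distal sites with a peak in all 3 replicates. Meis1 is highest with 66, 56 and 56 peaks and 31 shared sites, and Six6 is at 0 because another gene's start sites flank its own.

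Merged across replicates, the 6 genes had 251 distal regions, of which 91 (36.3%; exact 95% binomial interval 30.3% to 42.5%, for counting error only) had a peak in all 3 replicates. Over all genes the share was 39.8% of 216392 regions. Meis1 had 31 of these shared sites (rank 124 of all genes), Six3 had 19 (rank 547), Meis2 had 15, Rax had 14 and Lhx2 had 12, and the gene median was 2. Without replicate 3, which had the fewest peaks, the sites shared by the other replicates numbered 140 (63.3% of regions, beside 70.6% over all genes), with 38 at Six3 and 23 at Meis2. Without replicate 2, Lhx2 had 21. The genes differ in how much sequence lies nearest to them. Per 100 kb of such territory Rax had 30.3 shared sites, more than 99.5% of the 19123 genes with at least 10 kb, since its territory is only 46245 bp. Meis1 had 15.7, Six3 13.9, Lhx2 10.8 and Meis2 7.58 per 100 kb, beside a gene median of 4.71, so Meis2 is near the top by number and lower, at 70.1% of genes, by density.

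The layout round the genes differed. All shared distal sites of Lhx2 and Rax lay downstream of their most upstream start site, within or past the gene. Six3 and Meis1 each had 8 upstream, and Meis2 had 5. The sites of Six3 and Rax were close, at a median of 6883 and 6754 bp from the nearest start site. The farthest lay at 33103 and 23004 bp. For Rax the rule itself limits these distances, as its territory is 46245 bp, beside 136837 bp for Six3 and 198000 bp for Meis1. Meis1 reached out to 99431 bp, next to the limit of the rule, and 21 of its 31 sites were intronic. At the inner limit, the regions just inside the promoter window were one of Six3 at 943 bp (69, 52 and 88) and one of Meis2 at 987 bp (37 in replicate 1 alone). The regions just outside were one of Lhx2 at 1004 bp (35 in replicate 3 alone) and one of Meis1 at 1129 bp (40 and 17 in replicates 1 and 3). The nearest distal sites with a peak in all replicates were one of Rax at 1224 bp (60, 52 and 57), one of Meis2 at 1257 bp and one of Meis1 at 1431 bp.

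**Figure D3:**
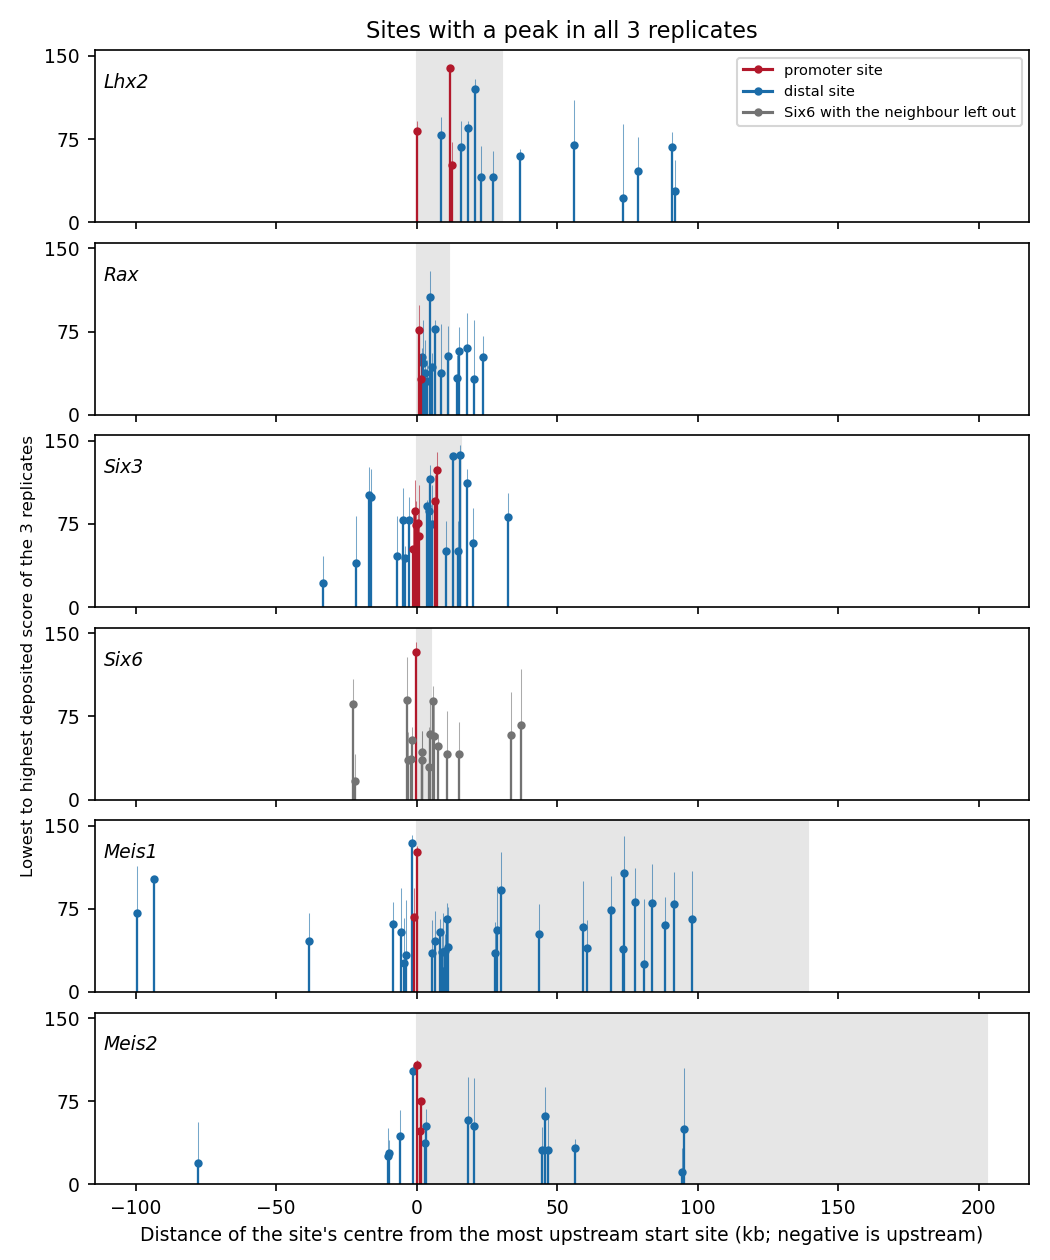
Sites with a peak in all 3 replicates by distance of their centre from the most upstream start site (horizontal axis, kb, upstream negative) and score (vertical axis: dot at the lowest replicate, thin line to the highest); grey bands span the genes, red is promoter, blue distal, and grey marks the sites that would go to Six6 with its neighbour left out. Sites of Rax and Six3 crowd round the gene. Those of Meis1 and Meis2 lie farther apart, on both sides of the gene start and to near the 100 kb limit. Lhx2 and Rax have none upstream. The small territory of Rax (46245 bp) limits how far its sites can lie.

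The strongest distal site of Lhx2, chr2:38359956-38360125, scored 129, 125 and 120 and lies in a coding exon that encodes part of the homeodomain. Its lowest score exceeded that of 98.2% of all shared distal sites. The next ones, in introns on either side of the internal promoter, scored 91, 90 and 85 (chr2:38357356-38357585) and 95, 79 and 91 (chr2:38347956-38348125). The last is the site printed above with the TAATTA and PBX-MEIS words.

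Rax had its strongest distal site in an exon, chr18:65934896-65935085, at 130, 127 and 106. These scores are higher than those of its promoter in all 3 replicates. A pair of further sites, chr18:65933136-65933325 (77, 77 and 85) and chr18:65921876-65922045 (92, 72 and 60), lie in an intron and 17044 bp downstream of the nearest start site.

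By the lowest score of the 3 replicates, Six3 held the highest-scoring distal sites of the 6 genes. A site in an exon near its 3′ end, chr17:85628916-85629065, scored 146, 137 and 139, and an intron site, chr17:85626576-85626765, scored 138, 139 and 136. The lowest scores of these sites were above those of 99.8% and 99.7% of shared distal sites, and in replicates 1 and 3 both were above the strongest promoter peak of Six3. The site at chr17:85618396-85618605, printed above with 74% GC, scored 116, 117 and 128 and covers an annotated start of Six3os1. Six3 had 5 shared sites with a score of 100 or more in every replicate, against 3 for Meis1 and 1 each for Lhx2, Rax and Meis2. Together these are 11 of 91 (12.1%), beside 6.5% of all 86108 shared distal sites.

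Meis1 had a site of 142, 140 and 134 at chr11:19020416-19020625, 1431 bp upstream of its first start site, which is a distal site only by the 1 kb limit. With a window of 2500 bp it becomes the strongest promoter peak of Meis1, whose mean rises to 139 ± 4.16. A site deep in an intron, chr11:18944956-18945145, scored 141 and 139 in replicates 1 and 2 and 107 in replicate 3. Another, 93291 bp upstream at chr11:19112276-19112465, scored 105, 102 and 105. Meis2 had a like upstream site 1257 bp from its first start site, chr2:116067096-116067245, at 105, 102 and 108. That is close to its promoter peak (112, 112 and 108), and the site covers a start of the noncoding transcript G630016G05Rik. The next Meis2 sites, both intronic, scored 88, 83 and 62 (chr2:116020056-116020205) and 97, 83 and 58 (chr2:116047536-116047685), lowest in replicate 3.

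The shared distal sites of the 6 genes lay in exons in 13 of 91 cases (14.3%), beside 5.34% of all shared distal sites, with 6 of the 13 at Rax. Introns held 47.3% (51.4% of all) and sequence outside protein-coding genes 38.5% (43.3%). Exons and introns are here those of protein-coding genes. Within 1 kb of a start of a noncoding transcript lay 21 of the 91 (23.1%), beside 4.56%, and 41 (45.1%) were within 10 kb of the nearest coding start site, beside 28.8%. The sites of 1 gene share their neighbourhood and are not independent. Start sites of all annotated genes were also tried, both for the 1 kb limit and to find the nearest gene. A site closer to a start site of another gene then no longer counted for a member. The 6 genes had 36 shared distal sites this way, 0 of them at Rax, 2 at Lhx2, 6 at Meis1 and 7 at Six3. The other 21 were at Meis2, which had 15 before.

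Six6 had no distal site because 5 start sites of 4930447C04Rik surround its only start site. They lie 22132, 21986 and 1915 bp upstream and 191 and 882 bp downstream of it, and no base beyond 1 kb is nearer to Six6. 4930447C04Rik was given 34, 26 and 21 distal peaks (27 ± 6.56, SD, n = 3) and 13 shared sites. With its start sites left out, an alternative chosen after the data were seen, Six6 had 35, 34 and 23 distal peaks (30.7 ± 6.66) and 17 shared sites, more than 96.1% of genes, 11 of them within 10 kb. Leaving the start sites out also lifts the 1 kb limit round them. Some of the 17 sites lie within 1 kb of a start site of 4930447C04Rik. Examples are chr12:72937756-72938105 and chr12:72938116-72938485, which the main rule does not count as distal. The 96.1% thus sets Six6 beside genes whose neighbours kept this limit. The strongest of the 17, chr12:72936436-72936605, scored 129, 125 and 90. It lies 3371 bp upstream, in an intron of 4930447C04Rik. Distance cannot tell which of the 2 genes these sites belong to.

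Hotspots showed broad domains over several of these genes. Over the sequence within 10 kb of the start sites, Six6 was covered to 58.8%, 47.9% and 48.1% (51.6 ± 6.24, SD, n = 3), ranks 17, 15 and 14 of all genes, with replicates 2 and 3 nearly equal. Six3 was covered to 74.5%, 53.9% and 32.6% (53.7 ± 21), at ranks 4 and 7 in replicates 1 and 2 and rank 87 in replicate 3. Meis1 was covered to 68.6%, 22.2% and 68.5% (53.1 ± 26.8), with ranks of 6, 366 and 2, so that replicate 2 was the low one. Lhx2 (31.4%, 12.1% and 38.4%) and Meis2 (28.2%, 16.2% and 33%) were likewise lowest in replicate 2. Rax was covered to 34.3%, 20.9% and 25.5%, again lowest in replicate 2. Gene medians were 7.54%, 6.46% and 6.16%, and every member was above them in every replicate.

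The widest hotspot touching the Six6 window spanned 5261, 3229 and 3829 bp, ranks 31, 49 and 77 of all hotspots of its replicate; it is also the widest at 4930447C04Rik. At Lhx2 the widest was 2590, 802 and 2975 bp, at Meis1 3012, 680 and 3483 bp, and at Rax 2051, 621 and 2159 bp, shortest in replicate 2 each time. At Six3 it was 4884, 2157 and 987 bp, shortest in replicate 3. Replicate 2 had fewer wide hotspots over the genome as well: 446 of 2 kb or more (0.172% of its hotspots), beside 1467 (0.545%) and 1587 (0.983%) in replicates 1 and 3. The part this plays in the widths at these genes was not tested.

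**Figure D4:**
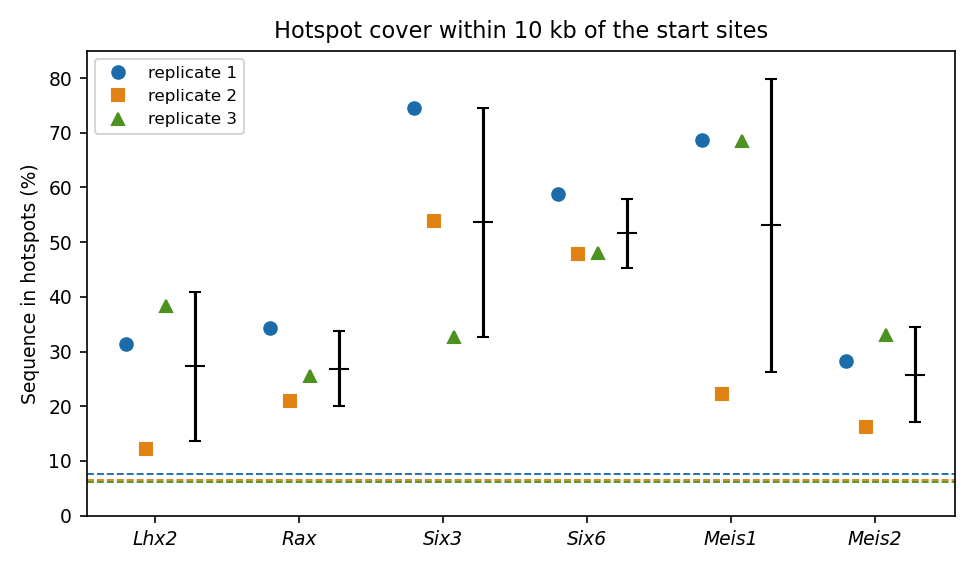
Share of the sequence within 10 kb of the start sites that lies in hotspots (vertical axis, percent) for each gene in replicates 1, 2 and 3, with mean and SD (n = 3) in black and gene medians as dashed lines (7.54%, 6.46% and 6.16%). Of the 6 genes 5 are lowest in replicate 2, Six6 by only a little (47.9% and 48.1% in replicates 2 and 3), and Six3 is lowest in replicate 3 at 32.6%.

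Which replicates shared a region also differed between the genes. Peaks in replicates 1 and 3 without replicate 2 made up 25 of the 251 distal regions (9.96%), beside 1.98% of all distal regions, and 5 of 42 promoter regions (11.9%), beside 3.53% of all promoter regions. Lhx2 had 9 of the 25 (22% of its 41 regions), Meis1 had 8 and Six3 had 5. These were moderate peaks, with scores of 21 to 92 in replicate 1 (median 54) and 17 to 98 in replicate 3 (median 49). In replicate 2 a hotspot overlapped 3 of the 25 (12%), beside 13.5% of the 4281 such regions of all genes, so most lay outside its hotspots too. Regions with a peak of replicate 3 alone made up 12.7%, beside 5.34% of all.

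Peaks in replicates 1 and 2 without replicate 3 made up 48 of the 251 distal regions (19.1%), below the 27.2% of all. They made up 10 of 42 promoter regions (23.8%), above the 16.3% of all. Replicates 1 and 2 are those in which all 12 microglia and macrophage markers had a promoter peak. Six3 had 19 of the 48 distal regions (29.2% of its 65 regions, near the 27.2% of all). Its distal count was lowest in replicate 3, as was the number of peaks over the genome (300269, 281185 and 184544). The summed macrophage scores of 953, 909 and 107 were lowest there too. The part of macrophages in the Six3 sites was not tested. No distal region of the 6 genes with a score of 100 or more in replicates 1 and 2 lacked a peak in replicate 3. Peaks in all replicates made up 18 of the 42 promoter regions (42.9%), beside 53.3% of all, and from 29.2% (Six3) to 60.9% (Rax) of distal regions.

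**Figure D5:**
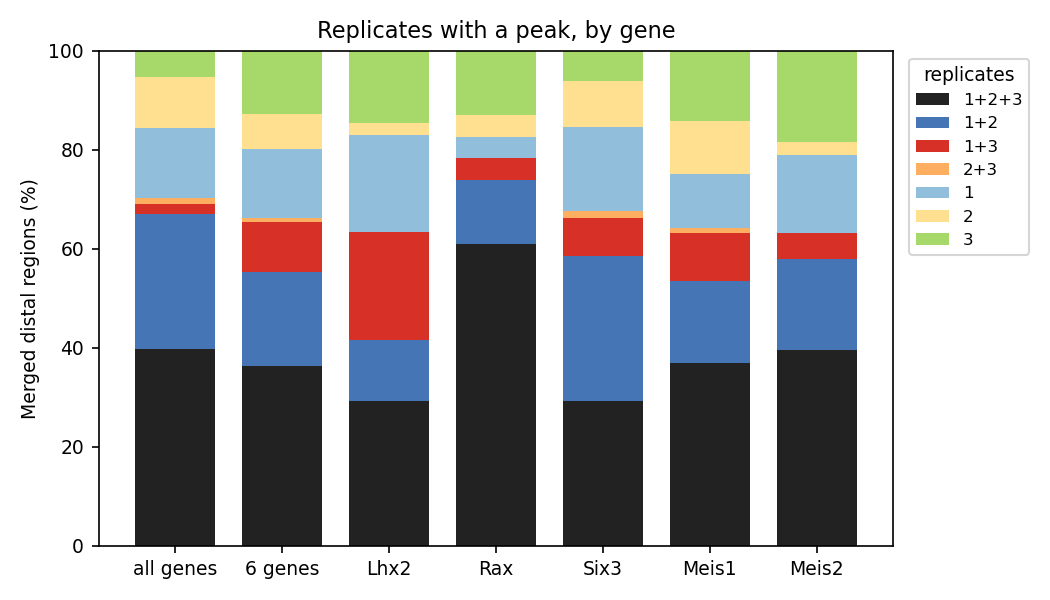
Share of merged distal regions (vertical axis, percent) by the replicates that have a peak in them, for all genes, the 6 genes together (Six6 has none) and each gene. The red band, replicates 1 and 3 without 2, is 1.98% for all genes, 9.96% for the 6 genes and 22% for Lhx2.

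A set of 14 words was searched on both strands in the central 150 bp of the 91 shared distal sites and of all 86108. TAATTA, both E-boxes and, with any base at N, TGANTCA read the same on either strand, and no word contains another. A match is a description and does not show that a factor binds. For the members' own families, TAATTA (LIM and paired homeodomains) was in 7 of the 91 sites (7.69%, beside 5.83% of all), TGATAC (sine oculis family) in 3 (3.3%, beside 2.73%), and TGACAG (MEIS) in 9 (9.89%, beside 13%). The PBX-MEIS core TGATTGAC was in 2 sites (2.2%, beside 0.318%), 1 at Lhx2 and 1 at Meis2, both printed above. With so few sites these shares are coarse. TAATCC, a word of OTX and CRX, was in 6 sites (6.59%, beside 3.86%).

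Of the words of other families, AP-1 (TGANTCA) was in 12 of the 91 sites (13.2%, beside 20.6% of all). They were unevenly spread: Meis1 had 9 among its 31 sites, Meis2 2, Lhx2 1, and Rax and Six3 none among 14 and 19. The SOX words ACAATG and ACAAAG were in 8 sites each (8.79%, beside 11.3% and 16.6%). TTGGCA (NFI) and GGAATG (TEAD) were in 12 sites each (13.2%, beside 17.1% and 19%). CAGCTG, an E-box, was in 12 (13.2%, beside 13.9%) and CATATG in 2 (2.2%, beside 1.72%). AGGGGGC (CTCF core) was in 4 (4.4%, beside 4.68%) and GTTGCCAT (RFX) in 0 (0.794% of all). Mean GC content was 52.2%, beside 50% over all.

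Genes of the same families and their partners were also mostly open, 62 of 68 (91.2%, beside 67.1% of all genes), with a median of 5.5 shared distal sites beside 2. Among other sine oculis family genes, EYA and DACH cofactors and Groucho corepressors all 15 were open (median 8 sites). Tle3, a Groucho corepressor, had the most, 36, and Eya4 had 18. Of LIM factors and cofactors 17 of 18 were open. Lmo4 and Lmo1, LIM-only proteins, led with 26 and 18 sites, and Lhx5 had a promoter peak in replicate 1 alone (26). Of TALE factors and PBX partners 8 of 9 were open, led by Tgif1 (23) and Pknox2 (18).

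The paired class was the least open, with 10 of 14. Crx, the photoreceptor homeobox gene, had no promoter peak in any replicate, and it was the sole gene without one in these lists. Otx2, a homeobox factor that also acts in photoreceptors, scored 0, 21 and 41. Otx1, a relative of Otx2, was open (94, 88 and 95) and had 10 shared distal sites. Of 14 eye field and progenitor partners 13 were open (median 15.5 sites), with Sox2 at 45 and Pax6 at 32, both above the 31 of Meis1.

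The genes most like each member were found by the distance over 6 percentiles, those of the promoter score and of the distal peak number in the 3 replicates, so the measure rests on 3 samples of 1 cell type. Meis1 was nearest to Cmip (132, 126 and 127) and Ablim1, at distances of 1.73 and 1.93 percentile units, and Rax to Ppp1r14c (95, 77 and 97) and Adamts3, at 1.84 and 4.17. Six6 was nearest to Tbc1d17 and Gm20695 (1.29 and 1.67), which also have no distal peak. The rule sets the 0 distal peaks of Six6, which had 35, 34 and 23 with its neighbour left out. Its distances rest in part on that rule. Meis2 was nearest to Foxo1 and Runx1t1 (3.96 and 4.73), Six3 to Otud7a and Agpat4 (4.64 and 5.76), and Lhx2 to Smad2 and Dnajc1 (6.69 and 8.06). Among the 6 genes themselves the closest pairs were Six3 with Meis1 (16.3) and Rax with Meis2 (21.4). The genes named above are the nearest of all protein-coding genes, so their smaller distances follow from how they were picked.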

How the data were processed

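DNase-seq peak and hotspot lists of 3 replicates of P12 mouse Müller cells were used as the authors deposited them, on mm10. Their descriptions, deposited beside them, trace a list to the filtered alignments of its own library and 1 other file, without pooling. The aligner, the caller and their versions were not given in the sources used here. The value of a deposited peak is a score, a whole number of 1 to 150 whose meaning is not stated, which can saturate. The value of a deposited hotspot is a −log10 q, from 1.3 to a cap of 100; it was used only to describe. No counts come with the lists, so depth is unknown and no precision can be drawn from it.

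Peaks at repeated positions were removed (21, 20 and 23 in replicates 1, 2 and 3) and peaks overlapping by at least 1 bp were merged. Start sites were those of protein-coding transcripts of 21646 GENCODE M21 genes. A promoter score is the highest score among a replicate's own peaks within 1 kb. Territory is the sequence over 1 kb from every start site and within 100 kb that lies nearest to a gene. Percentiles are shares of genes with a lower value. Sequences were read from the RefSeq GRCm38.p6 genome; 0 of 351961 merged regions ran past a chromosome end. Python 3.11.15, numpy 2.4.6, pandas 2.3.3, scipy 1.17.1 and pysam 0.24.0 were used, and the merging and assignment were tested on simulated data.

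The members, related lists, markers and words were chosen with earlier results of these data known. Named were all 6 members, the 3 distal sites of each with the highest lowest score, the 2 genes of each related list with most shared distal sites and those with no promoter peak, and the 2 genes nearest to each member, except for a result that is not reported here; Lhx5, Otx2, 4930447C04Rik and the single markers were named after their values were seen. Other windows, limits, overlaps, start sites, peak numbers and replicates left out were tried.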

Additional observations from a re-analysis of the deposited data

How the results depend on the processing

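All 6 genes had an open promoter under every alternative run. Of the related genes 60 were open with a promoter window of 500 bp, against 62. The 91 shared distal sites of the 6 genes became 59 with the strongest 50% of peaks, 36 with start sites of all annotated genes, and 94 to 140 when a replicate was left out; 140 is without replicate 3, 94 without replicate 1 and 115 without replicate 2. The share of their distal regions with a peak in all replicates was 36.3%, beside 39.8% of all distal regions. It was 27.9% with an overlap of 75 bp (34.7% of all) and 45.1% for hotspots (41.2% of all). Without replicate 1, 2 or 3 it was 42.9%, 48.3% and 63.3%, beside 47.4%, 46.2% and 70.6% of all. For hotspots and without replicate 2 it was thus above the share of all, and in the other settings named here below it. A share was called moved when it left the exact 95% binomial interval of its main value. A promoter score was called moved when its mean shifted by the SD or more. Counts had a fold limit, under which a change from 91 to 135 sites (limit of 200 kb) is not called moved. By these rules 8 of the summary values moved and 30 did not. Of those of single genes and words 22 moved and 102 did not. Single replicates decided some numbers: Lhx2 went from 12 to 21 sites without replicate 2, and Six3 from 19 to 38 and Meis2 from 15 to 23 without replicate 3. Meis2 had 9 with equal numbers of strongest peaks and 26 with start sites of every transcript of coding genes, an alternative chosen after seeing the data. With a limit of 200 kb Six3 had 36 sites, Meis1 48 and Meis2 25, and with 50 kb Meis1 had 18. Numbers of peaks move with depth, which is unknown, so an absent peak may be one that was not detectable. No paired analysis was possible because the series has a single group.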
